A study of Mus musculus with 4 samples.

Results

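The genes described here encode protein-folding helpers (chaperones) and the factors of the unfolded protein response, measured in cultured mouse osteoblasts on Affymetrix arrays. A list of 33 genes was set by symbol, and 32 of them had a probe set annotated with a single gene symbol, out of 18193 such genes on the array; Hsp90ab1 was the exception. Each gene was read from its probe set with the highest mean log2 intensity over the 4 arrays, and all 32 lay above the brightness filter (the median probe set, an intensity of 66.2), as did 11661 genes in all. The dimmest of the 32, Sdf2l1, had a mean intensity of 268. The list has 11 chaperones and co-chaperones of the endoplasmic reticulum (ER), 3 disulfide isomerases, 6 genes of ER-associated degradation (ERAD), 2 transcription factors, 3 genes of the protein translocon, 5 cytosolic chaperones and 3 mitochondrial ones.

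The series has 4 arrays with 1 array in each group, namely a control labelled 0 h and insulin treatment at 10 nM lasting 6, 12 or 24 h. All cells were osteoblasts grown to confluence and serum-starved, and none of the groups carried the IGF-1 receptor per the growth protocol, while the genotype entry reads IGF-1 null; the sources used here do not settle which is meant or whether the cells were 1 clone. Groups of a single array allow no test, so values are given without a p-value or an error between arrays, and precision is limited by how few arrays there are. The insulin times have no untreated array of their own here, so the effect of time and that of insulin cannot be told apart. All differences from 0 h share the same 0 h array.

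Secretory cells such as osteoblasts pass large amounts of collagen and other matrix protein through the ER. Chaperones there hold unfolded chains, disulfide isomerases pair their cysteines, and chains that fail to fold are drawn back to the cytosol by ERAD and degraded. When unfolded chains build up, the sensors IRE1, ATF6 and PERK start the unfolded protein response: IRE1 splices the Xbp1 mRNA, ATF6 is cut to release a transcription factor, and PERK slows translation while favouring ATF4 and its target CHOP. Cytosolic and mitochondrial chaperones belong to other programmes, chiefly the heat shock response.

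Genes of the ER response are known for a short promoter element, the ER stress element (ERSE), in which the boxes CCAAT and CCACG stand 9 bases apart, and for a compact form (ERSE-II) in which ATTGG and CCACG are 1 base apart. RefSeq promoter windows of 300 bases (250 before to 50 after the transcription start, mouse build GRCm38.p6) were found for 24 of the 33 genes, and both strands were searched. The genes with no window were Hyou1, Manf, Derl1, Atf6, Sec61a1, Hspa8, Hsp90aa1, Hsp90ab1 and Hspa9. ERSE was present in the windows of 8 of the 24 (Hspa5, Hsp90b1, Dnajc3, Calr, Canx, Creld2, Pdia6 and Syvn1), against 0.119% of all 32851 windows. ERSE-II was present in Dnajb11 and Herpud1, against 0.0365% of all windows. All 10 genes belong to the 17 ER chaperone, isomerase and ERAD genes with a window. None of the 4 cytosolic and mitochondrial genes with a window (Hspa4, Dnaja1, Hspd1 and Hspe1) held either element. The heat shock element, 3 alternating GAA and TTC units spaced by 2 bases, occurred in 0.603% of all windows and in those of Hspd1 and Hspe1, which lie head to head and share it. The XBP1-type element TGACGTGG was in 0.676% of all windows and in none of the 24. A match describes the letters only, and a window without one says nothing about a factor. The ER genes were listed as part of a response known for ERSE, so their share above that of all windows tests nothing. A gene was counted if any of its windows held the element, while the percentages are of windows.

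The following sequences show the elements in genes whose intensities are given later, so that the shared boxes can be compared. They run from 5′ to 3′ on the strand of the gene. Capitals mark the boxes of the element; in Calr it reads on the opposite strand, so the boxes appear as CGTGG and ATTGG. The Hspa5 window is shown whole (chr2:34771840-34772139, plus strand), with ERSE beginning 65 bases before the start. The others carry up to 20 bases on each side: Dnajc3 at chr14:118937807-118937865 (plus), Pdia6 at chr12:17266471-17266529 (plus), Syvn1 at chr19:6046512-6046570 (plus), Canx at chr11:50325780-50325838 (minus), Calr at chr8:84847055-84847113 (minus), Dnajb11 at chr16:22857832-22857882 (plus), Herpud1 at chr8:94386357-94386407 (plus) and Hspe1, with the heat shock element, at chr1:55088039-55088091 (plus). In Dnajb11 the element begins 7 bases after the start, and in Herpud1 52 bases before it.
Hspa5: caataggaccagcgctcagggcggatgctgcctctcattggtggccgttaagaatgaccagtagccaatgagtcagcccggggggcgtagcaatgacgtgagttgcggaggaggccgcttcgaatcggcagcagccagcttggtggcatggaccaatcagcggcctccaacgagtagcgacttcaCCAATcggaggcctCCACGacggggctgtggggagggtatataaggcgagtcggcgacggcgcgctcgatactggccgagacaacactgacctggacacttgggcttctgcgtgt
Dnajc3: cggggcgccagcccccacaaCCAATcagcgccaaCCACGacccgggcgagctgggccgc
Pdia6: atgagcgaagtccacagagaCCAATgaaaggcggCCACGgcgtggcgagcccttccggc
Syvn1: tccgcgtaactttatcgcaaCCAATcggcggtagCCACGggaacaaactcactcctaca
Canx: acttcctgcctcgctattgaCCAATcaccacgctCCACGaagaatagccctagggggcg
Calr: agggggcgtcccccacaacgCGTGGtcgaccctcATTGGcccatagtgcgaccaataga
Dnajb11: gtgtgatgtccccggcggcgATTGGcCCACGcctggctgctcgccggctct
Herpud1: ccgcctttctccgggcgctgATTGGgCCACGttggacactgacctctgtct
Hspe1: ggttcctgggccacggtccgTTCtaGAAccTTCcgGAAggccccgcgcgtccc

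The 0 h array stood apart from the insulin arrays in ways that touch every difference below. The medians of the difference over whole chromosomes (mean of the 3 insulin arrays minus 0 h, log2) ran from -0.24 on chromosome 8 to 0.33 on chromosome 4. The sex-linked genes Xist (intensities of 109, 1636, 1278 and 1463 at 0, 6, 12 and 24 h) and Eif2s3y (12.2, 295, 305 and 326) differed too. Of the osteoblast markers Col1a1, Col1a2, Sp7, Alpl, Ibsp, Sparc and Phex, all 7 were above the filter as means over the arrays, but Sp7 (60.8) and Alpl (61.5) were below it at 0 h. The summed intensities of these markers at 0, 6, 12 and 24 h were 53435.4, 78420.5, 85952.7 and 88596. Listed symbols without a probe set of a single symbol were left out: Runx2, Spp1 and Bglap here, and Emr1 (macrophage) and Plin1 (adipocyte) below. At all 3 insulin times 4 of the 7 osteoblast markers were at least 1.5-fold higher than 0 h, against 17% of all genes. Of the 7, 0 were lower by as much, against 10.5% of all genes. Ibsp differed most among them, with 202 at 0 h and 8849 at 6 h. Markers of other cell types moved with the arrays: their summed intensities at 0, 6, 12 and 24 h were 717, 1817, 2362 and 2690 for 7 macrophage genes (5 above the filter, Ptprc and Itgam not; Cd14 alone was 1.5-fold lower), 735, 2435, 3814 and 5031 for 4 adipocyte genes (Adipoq and Fabp4 above, Cidec and Lep not) and 431, 3849, 5652 and 6358 for 5 chondrocyte genes (all but Matn1 above). Being above the filter again refers to the mean over the arrays. At 0 h alone Cd68 (36.1), Tyrobp (62.7), Adipoq (23.4), Col9a1 (32.3) and Matn3 (53.3) were below the filter. For 5 endothelial genes, of which Kdr alone was above the filter, the sums were 208, 242, 207 and 221. For 5 skeletal muscle genes, with Acta1 and Des above, they were 400, 1934, 2022 and 1858. Acta1 alone (130 at 0 h and 1712 at 6 h) gave that difference, while Des, Myod1, Myog and Ckm were lower than 0 h on all 3 insulin arrays. The part of these differences in the chaperone values was not tested, and fewer cells of a type cannot be told apart from less RNA per cell.

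Most genes of the ER set were somewhat brighter on the insulin arrays than at 0 h, and a few were well apart. On each insulin array 5 of all 32 genes (15.6%) exceeded 0 h by 1.5-fold or more, and 1 (6 h) or 2 (12 h, 24 h) were lower by as much. Those counts were not above the background: 18.6%, 20.5% and 19.5% of all genes above the filter passed that size upward at 6, 12 and 24 h, and 12.8%, 13.3% and 13.3% downward. At all 3 times 4 of the 32 (12.5%) were past 1.5-fold higher, against 17% of all genes, and 1 (3.12%) lower, against 10.5%. The differences of the ER genes were mostly small and of 1 sign: 15 of the 20 ER chaperone, isomerase and ERAD genes (75%) were higher than 0 h by any amount on all 3 insulin arrays, and 2 (10%) were lower, while 44.7% of all genes were higher on all 3 and 42.5% lower. That contrast rests on 1 probe set per gene, and no test stands behind it. Among the 15, Hspa5, Hsp90b1 and Hyou1 each had another probe set that was lower as a mean over the 3 times. Derl1, among the 2 lower genes, had other probe sets that were higher.

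**Figure D1:**
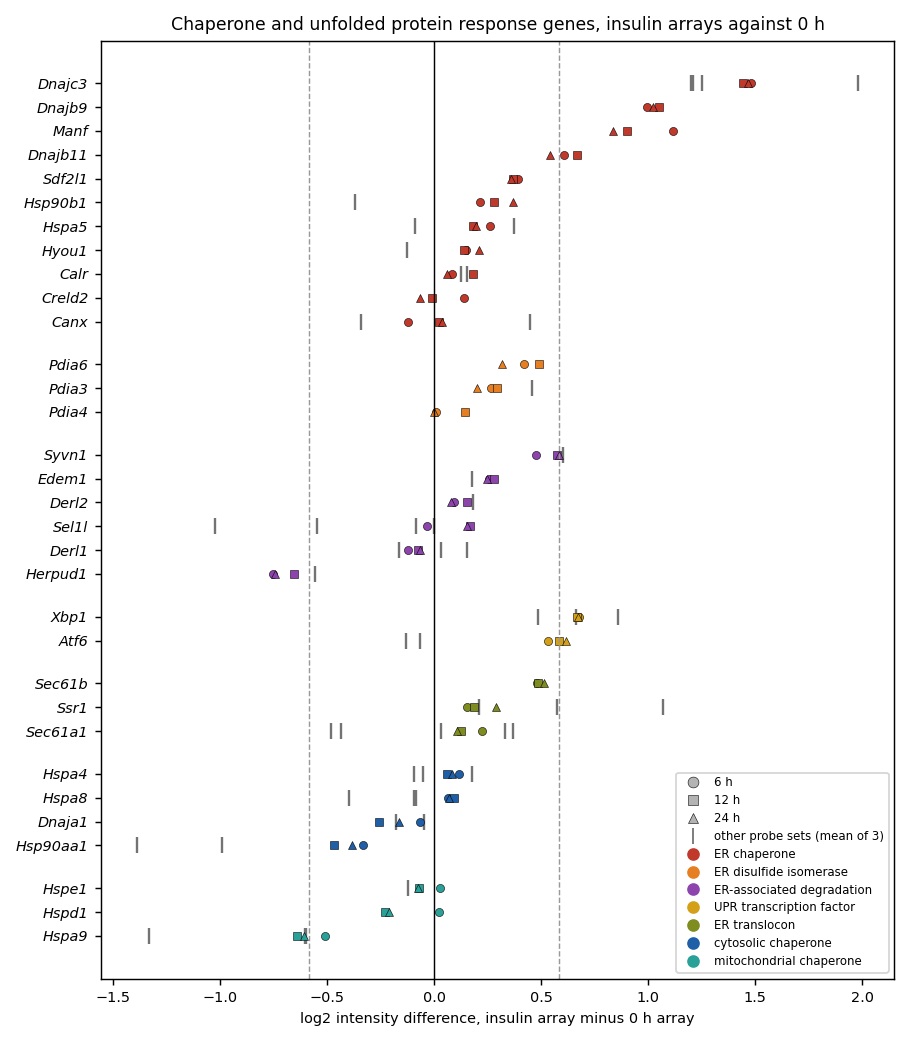
Log2 intensity of each insulin array minus the 0 h array (horizontal axis) for the 32 genes, grouped and coloured by class; circles, squares and triangles are 6, 12 and 24 h, grey bars are the gene's other probe sets above the filter (mean of the 3 differences), and dashed lines mark 1.5-fold. Dnajc3, Dnajb9, Manf and Xbp1 lie beyond 1.5-fold higher at all 3 times and Herpud1 beyond 1.5-fold lower, and the 3 times of a gene nearly coincide.

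Among the ER chaperones, those farthest from 0 h were co-chaperones and secreted helpers, not the major lumenal chaperones. Dnajc3, the co-chaperone P58IPK, which also restrains PERK, had intensities of 345, 963, 938 and 955 at 0, 6, 12 and 24 h. All 3 insulin arrays lay 2.79, 2.72 and 2.77-fold above 0 h. Its 5 probe sets, all above the filter, were higher by 1.20 to 1.98 on the log2 scale as means over the 3 times. Dnajb9 (ERdj4), a co-chaperone of BiP that also restrains IRE1, had 874, 1740, 1808 and 1777, close to a doubling (1.99, 2.07 and 2.03-fold). Manf, a small secreted ER protein that is a classic target of the response, had 2452, 5307, 4581 and 4371, with its highest value at 6 h. Dnajb11 (ERdj3), another BiP partner, had 1053, 1603, 1673 and 1531, which is 1.52, 1.59 and 1.45-fold higher. Dnajb9, Manf and Dnajb11 rest on 1 probe set each. With the chromosome's median removed, the mean log2 difference of Dnajb11 went from 0.61 to 0.52, short of 1.5-fold. That of Manf went from 0.95 to 0.74, that of Dnajc3 from 1.46 to 1.27 and that of Dnajb9 from 1.02 to 1.07.

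The abundant lumenal chaperones differed less from 0 h. Hspa5, which encodes BiP, the central Hsp70 of the ER, had 10059, 12058, 11405 and 11533. The log2 differences were 0.26, 0.18 and 0.20; 1 other probe set was also higher (0.37 log2, mean of the 3 times) and 1 slightly lower (-0.09). Hsp90b1, the ER member of the Hsp90 family, had 5278, 6130, 6419 and 6824, but a second probe set was lower on the insulin arrays (3892, 3496, 2771 and 2819). Its direction therefore depends on the probe set. Sdf2l1, a BiP-associated protein, had 220, 289, 285 and 283, about 1.3-fold higher at each time. Hyou1, the ER exchange factor GRP170, had 749, 832, 826 and 865, with its second probe set lower (-0.13 on the log2 scale); with chromosome medians removed the mean difference of Hyou1 was -0.05. The lectin chaperone genes Calr (9194, 9754, 10419 and 9602) and Canx (6127, 5640, 6229 and 6296) and the ER stress-inducible gene Creld2 (1399, 1542, 1392 and 1338) stayed within 1.13-fold of 0 h. For Canx, 1 other probe set was lower and 1 higher. With chromosome medians removed the mean log2 differences were 0.16 in Hsp90b1, 0.36 in Calr and 0.21 in Creld2.

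Disulfide isomerases were slightly higher, none past 1.5-fold. Pdia6 had 2705, 3619, 3797 and 3373, with log2 differences of 0.42, 0.49 and 0.32. Pdia3, the partner of calreticulin and calnexin, had 7497, 9027, 9200 and 8618, and Pdia4 had 461, 465, 510 and 462. The last was all but level with 0 h at 6 and 24 h.

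ERAD genes did not move together. Herpud1, a membrane protein that assembles the ERAD ligase complex, was well below 0 h, with 3003, 1785, 1908 and 1794. It was 1.68, 1.57 and 1.67-fold lower, and its second probe set was lower as well (-0.56 on the log2 scale, mean of the 3 times). With chromosome medians removed the mean difference of Herpud1 was -0.47, short of 1.5-fold. Syvn1, the ubiquitin ligase HRD1 at the centre of that complex, went the other way with 538, 748, 800 and 805, with log2 differences of 0.48, 0.57 and 0.58, and its second probe set was higher too. The mean difference of Syvn1 was 0.74 with chromosome medians removed and 0.54 without. Edem1, a lectin that hands misfolded glycoproteins to the pathway, had 1154, 1378, 1401 and 1371. Sel1l, the partner of HRD1, had 1685, 1645, 1892 and 1877 (brightest probe set), but 2 of its other 4 were lower by 0.55 and 1.02 on the log2 scale. Derl1 and Derl2, which encode the membrane proteins Derlin-1 and Derlin-2, were within 1.11-fold of 0 h at every time; with chromosome medians removed Derl1 was higher by 0.10 on the log2 scale.

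Both transcription factor genes on the list were higher. Xbp1 had 2835, 4535, 4501 and 4523, about 1.6-fold above 0 h at each time, and all 4 of its probe sets were higher by 0.49 to 0.86 on the log2 scale, the lowest of them short of 1.5-fold. The 3 insulin arrays were nearly identical. Spliced and unspliced Xbp1 mRNA were not told apart by these values. Atf6 had 216, 312, 324 and 331 by its brightest probe set (log2 differences of 0.53, 0.58 and 0.62), but 2 other probe sets did not share that difference (-0.13 and -0.07 on the log2 scale). The mean difference of Atf6 was 0.32 with chromosome medians removed.

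The translocon carries new chains into the ER. Sec61b, its beta subunit, had 4082, 5689, 5723 and 5832, or 1.39, 1.40 and 1.43-fold above 0 h. With the median of its chromosome removed, its mean log2 difference went from 0.49 to 0.16. Ssr1, of the translocon-associated TRAP complex, had 3555, 3950, 4052 and 4348, and all 4 of its probe sets were higher. Sec61a1, the channel itself, had 5918, 6907, 6451 and 6368, with 4 of 6 probe sets higher and 2 lower.

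**Figure D2:**
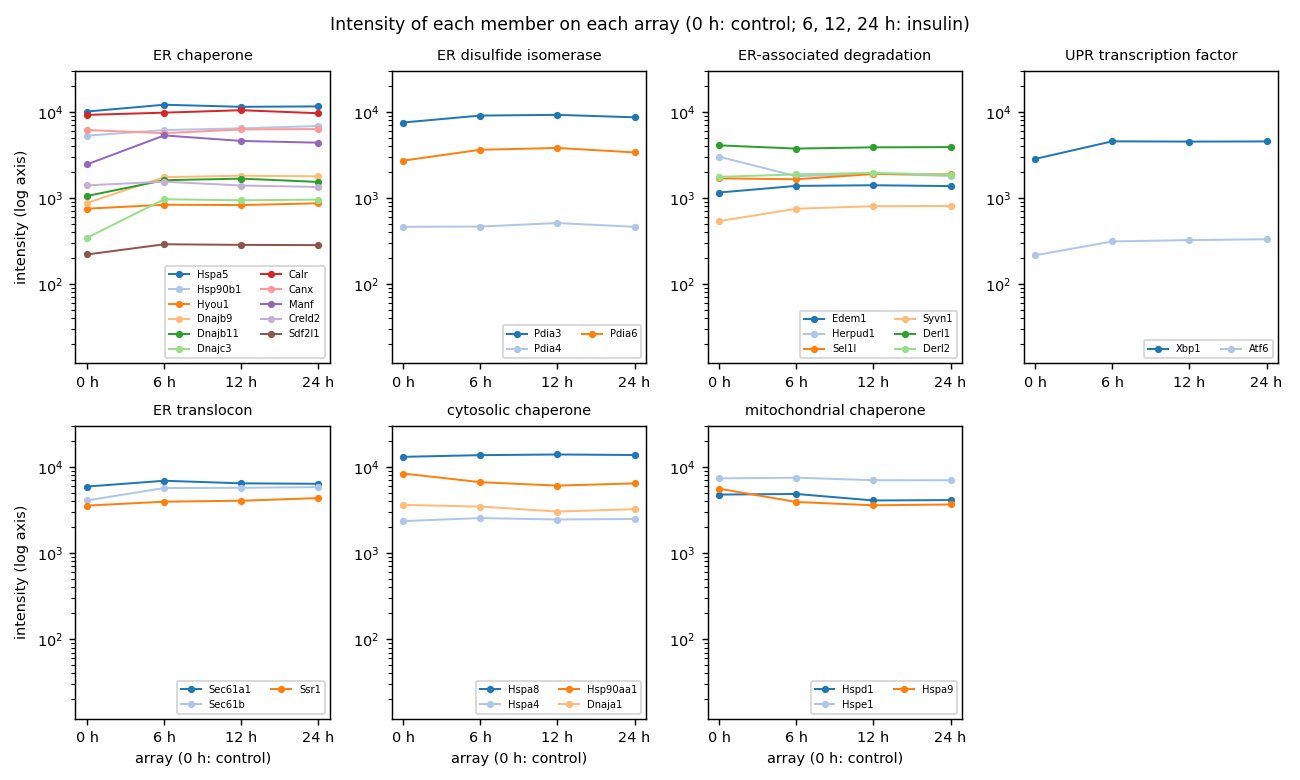
Intensity (log axis) of each gene on the 0 h, 6 h, 12 h and 24 h arrays, with 1 panel per class and 1 line per gene; levels of different genes are not comparable. The lines of Dnajc3 (345 to 963) and Herpud1 (3003 to 1785) leave 0 h by 6 h and change little after it, while Hspd1 is level at 6 h (4854) and lower at 12 h (4080).

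Cytosolic chaperones were near 0 h or below it. Hspa8, the constitutive Hsp70 of the cytosol, had 13095, 13698, 13946 and 13750 by its brightest probe set, within 1.07-fold of 0 h; its other 3 probe sets were lower, by at most 0.40 on the log2 scale. Hspa4, an exchange factor for Hsp70, had 2350, 2550, 2452 and 2491, and 2 of its 4 probe sets were lower as means over the 3 times. Hsp90aa1, the inducible cytosolic Hsp90, had 8387, 6654, 6065 and 6438, with log2 differences of -0.33, -0.47 and -0.38. This probe set showed the smallest difference of the 3 above the filter: the others had 10329, 6256, 4567 and 4920, and 4721, 2320, 1497 and 1693. On both of these every insulin array was more than 1.5-fold lower. Dnaja1, an Hsp40 that serves Hsp70, had 3622, 3465, 3035 and 3230, and its 3 probe sets were all lower as means over the 3 times. Its mean log2 difference went from -0.16 to -0.49 with chromosome medians removed.

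In mitochondria, Hspa9 (mortalin), which pulls imported chains through the inner membrane, had 5584, 3918, 3586 and 3664. It was 1.43, 1.56 and 1.52-fold below 0 h, and all 4 of its probe sets above the filter were lower by 0.59 to 1.33 on the log2 scale. The chaperonin genes Hspd1 (Hsp60) and Hspe1 (Hsp10), which share the promoter shown above, ran together: Hspd1 had 4775, 4854, 4080 and 4122 and Hspe1 had 7365, 7497, 7010 and 6996. Both were level with 0 h at 6 h and slightly lower at 12 and 24 h. That rests on no correction for the chromosome: with its median removed, the mean log2 differences went from -0.14 to -0.40 in Hspd1 and from -0.04 to -0.30 in Hspe1.

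The ER set was then compared with the cytosolic and mitochondrial set. The median log2 difference from 0 h over the 20 ER chaperone, isomerase and ERAD genes was 0.24, 0.23 and 0.20 at 6, 12 and 24 h. Over the 7 measured cytosolic and mitochondrial genes it was 0.02, -0.23 and -0.17, and over all genes above the filter 0.01, 0.03 and 0.00. The ER median thus exceeded the other by 0.21, 0.46 and 0.37. Removing the median difference of each gene's chromosome widened these gaps to 0.52, 0.66 and 0.58, and the mean of all probe sets narrowed the 24 h gap to 0.24. The sign of the cytosolic and mitochondrial median at 6 h is not settled: it was below 0 with quantile normalization (-0.040), with a loess curve removed (-0.042) and with chromosome medians removed (-0.22). The genes of a set are not replicates of a condition. At 6 h both sets lay between -0.75 and 1.48, inside the range of -0.97 to 1.80 that leaves out the highest and the lowest 5% of all genes.

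**Figure D3:**
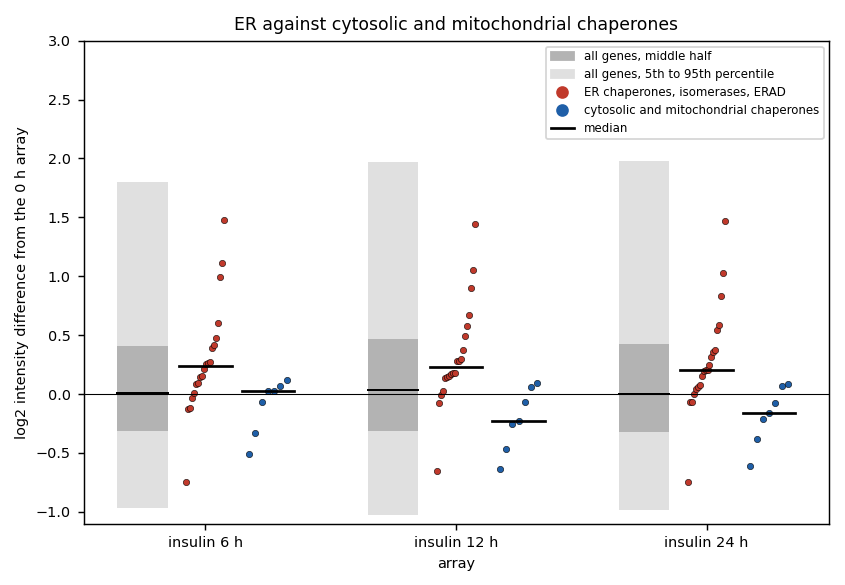
Log2 difference from the 0 h array (vertical axis) at 6, 12 and 24 h for all genes above the filter (grey bars), the 20 ER chaperone, isomerase and ERAD genes (red points) and the 7 cytosolic and mitochondrial genes (blue points), with medians as black lines. The red median is above 0 at each time and the blue one is near 0 at 6 h and below it at 12 and 24 h.

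Differences between insulin arrays do not use the 0 h array. None of the 32 genes was higher on 1 insulin array than on another by 25% or more. The background was also low: for 12 h against 6 h, 5.28% of all genes were higher by at least that much and 2.5% lower. For 24 h against 12 h the shares were 1.73% and 1.48%, and for 24 h against 6 h 4.81% and 1.89%. Past 1.5-fold, where again none of the 32 lay, they were 1.14% and 0.334%, 0.103% and 0.103%, and 1.68% and 0.12% for the same pairs. The median size of the difference in the 32 genes was 0.07, 0.03 and 0.06 on the log2 scale for these pairs, against 0.10, 0.09 and 0.10 over all genes. The widest step, singled out after its values were seen, was that of Manf for 24 h minus 6 h (-0.28 on the log2 scale). Between 6 and 12 h, 14 of the 20 ER genes were higher and 6 lower, while 1 of the 7 cytosolic and mitochondrial genes was higher and 6 lower, with medians of 0.06 and -0.13. Over all genes 57.1% were higher and 42.7% lower for that pair, against 70% and 30% of the ER genes. The median size over all genes for that pair was 0.10, and whether these steps exceed array error was not tested.

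**Figure D4:**
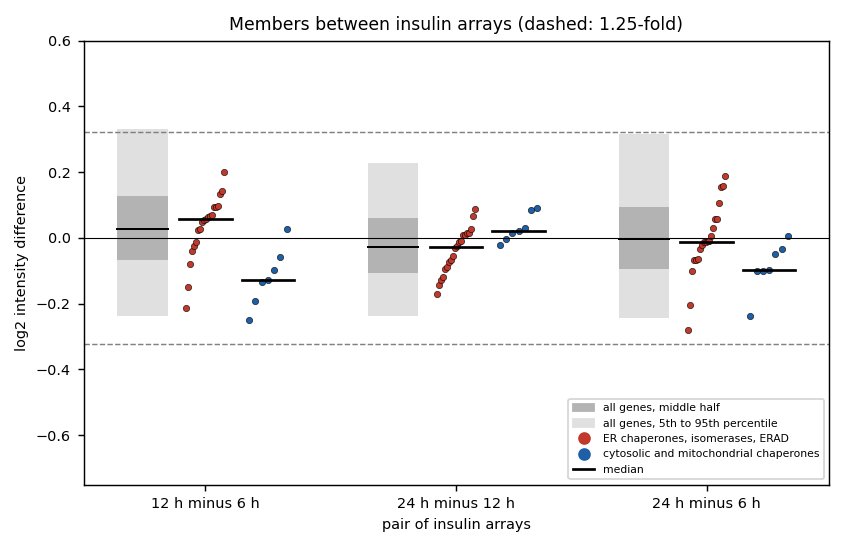
Log2 difference between pairs of insulin arrays (vertical axis) for all genes above the filter (grey bars), the ER genes (red points) and the cytosolic and mitochondrial genes (blue points), with medians as black lines. No point reaches the dashed lines, which mark a 25% higher intensity in either direction, and the blue points are mostly below 0 for 12 h minus 6 h.

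Other genes of the same pathways were read from 9 lists, with 126 genes above the filter. Of these, 19, 25 and 24 were at least 1.5-fold higher than 0 h at 6, 12 and 24 h and 7, 8 and 10 lower. The higher shares (15.1%, 19.8% and 19%) were at or below the background of 18.6%, 20.5% and 19.5%, and the lower ones (5.56%, 6.35% and 7.94%) were below that of 12.8%, 13.3% and 13.3%. The lists of ER folding, collagen chaperones, ERAD, the translocon and the factors related to ATF6 had medians above that of all genes (0.01, mean of the 3 differences). The list of the PERK branch and sensors (-0.03) and the lists of cytosolic and mitochondrial folding lay at or below it.

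In the PERK branch Ddit3, Atf4 and Trib3 were lower than 0 h on every insulin array, but other genes of the same arm were not. Ddit3, which encodes CHOP, had 3864, 1955, 2101 and 1838, close to 2-fold lower (log2 differences of -0.98, -0.88 and -1.07). Atf4 itself had 6694, 4681, 5010 and 4433, and its target Trib3 had 1156, 876, 939 and 857; each had both of its probe sets lower. With the chromosome's median removed, the mean difference of Atf4 went from -0.51 to -0.33. Chac1 (1078, 1008, 1189 and 982) was on both sides of 0 h, and Ppp1r15a, which encodes the phosphatase subunit GADD34, was higher on all 3 insulin arrays (438, 507, 541 and 507); both were singled out after their values were seen. Eif2ak3, which encodes PERK, had 463, 634, 563 and 647, and Ern1, which encodes IRE1, had 359, 360, 390 and 389, with a second probe set lower (-0.17 on the log2 scale). Mbtps2, the site-2 protease that frees ATF6 from the membrane, had 1488, 657, 623 and 738. Among the 11 genes of this list 0, 1 and 1 passed 1.5-fold upward, against 18.6%, 20.5% and 19.5% of all genes. Downward, 2, 2 and 3 passed, against 12.8%, 13.3% and 13.3%. The list median was -0.03, but 0.013 with chromosome medians removed, and -0.36 when each gene was read as the average of its probe sets.

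The membrane-bound transcription factors related to ATF6 were among the clearest differences. Creb3 had 1085, 2386, 2360 and 2295, Creb3l2 had 565, 1118, 1024 and 1098, and Creb3l1, known as OASIS and required for collagen secretion in bone, had 1147, 1901, 2041 and 2164. All 3 were more than 1.5-fold higher on every insulin array, as were 17% of all genes, and the other 2 measured genes of this list were slightly lower. The second probe set of Creb3l2 was level with 0 h (-0.01 on the log2 scale), and the median of the list went from 0.82 to 0.46 with the mean of all probe sets.

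Collagen chaperones were all higher to some degree. Of 6 measured, 2, 3 and 2 were 1.5-fold higher, against 18.6%, 20.5% and 19.5% of all genes. All 6 exceeded 0 h on each insulin array, against 44.7% of all genes, and the list median was 0.46. Fkbp14, a prolyl isomerase of the ER, had 834, 2206, 2112 and 2137, and P3h1, a collagen prolyl 3-hydroxylase, had 563, 1066, 1074 and 1042. Serpinh1 (HSP47), the collagen-specific chaperone, had 6944, 9497, 10487 and 10267, and its second probe set was higher too. With chromosome medians removed the mean log2 differences of Serpinh1 and P3h1 were 0.33 and 0.58, in place of 0.54 and 0.91.

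The other ER folding genes had a median of 0.25, with 2, 3 and 3 of 18 past 1.5-fold upward and none downward. With chromosome medians removed it was 0.10. Uggt1, the folding sensor for glycoproteins, had 838, 1414, 1554 and 1433, with a mean log2 difference of 0.81 that was 0.34 on its second probe set and 0.54 with chromosome medians removed. P4hb, the founding disulfide isomerase, had 8870, 10406, 11154 and 10793. The other ERAD genes had a median of 0.29, with 3 of 16 past 1.5-fold at each time: the ubiquitin-conjugating enzyme gene Ube2j1 (508, 1619, 1549 and 1594), the selenoprotein gene Selenos (1970, 3853, 3862 and 3827) and Vcp, the ATPase that extracts ERAD substrates (4273, 6889, 7161 and 7334). The second probe set of Ube2j1 was higher by 0.41 on the log2 scale, short of 1.5-fold, against 1.64 for the brightest. The mean log2 difference of Vcp went from 0.74 to 0.41 with chromosome medians removed. In the translocon and signal peptidase list (median 0.25), Ssr4 had 3231, 5611, 6078 and 5942 on its brightest probe set, but a second one was nearly level with 0 h (0.08 on the log2 scale). Sec63 had 723, 1195, 1167 and 1205, and Srp9, of the signal recognition particle, had 1825, 2742, 2812 and 2900. For Srp9 the mean log2 difference went from 0.63 to 0.36 with chromosome medians removed. Of 17 genes there 3, 4 and 4 passed 1.5-fold upward and none downward. Over all genes, 18.6%, 20.5% and 19.5% passed upward at 6, 12 and 24 h and 12.8%, 13.3% and 13.3% downward. The upward counts of the lists in this paragraph were near or below those shares.

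Cytosolic folding genes outside the list were split. The small heat shock protein gene Hspb1 had 168, 5027, 5347 and 4798, a log2 difference near 4.9, and both of its probe sets were higher. Bag3, a co-chaperone that works with small heat shock proteins, had 569, 1575, 1729 and 1750. Hspa4l had 620, 243, 207 and 236, with all 4 probe sets lower, and Hsph1, an Hsp110, had 1570, 2240, 2312 and 2029. The Hspa1a probe set had 32.3, 209, 211 and 230, while Hspa1b, its near-identical copy, was level with 0 h. Signal from such copies may be shared. At 0 h the Hspa1a value was below the filter of 66.2, so the size of its difference rests on a dim value. On this list of 27 genes 6, 8 and 8 passed 1.5-fold upward, against 18.6%, 20.5% and 19.5% of all genes. Downward, 2, 4 and 3 passed, against 12.8%, 13.3% and 13.3%. The list median of 0.01 changed sign with several settings and has no direction.

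The chaperonin TRiC and prefoldin, which fold actin and tubulin, leaned 1 way by small amounts. Of 14 subunits 13 were lower than 0 h on all 3 insulin arrays and 1, Vbp1 (singled out after its values were seen), was not, against 42.5% of all genes lower on all 3. None reached 1.5-fold, and the median was -0.20. Of the 6 probe sets of Cct4, 5 were lower as means over the 3 times and 1 was higher by 0.58 on the log2 scale. The mitochondrial list had a median of -0.28, with 8 of 12 genes lower on all 3 arrays. Lonp1, the matrix protease, had 1453, 861, 880 and 833, and Hscb, a co-chaperone of iron-sulfur cluster assembly, had 652, 390, 375 and 363.

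**Figure D5:**
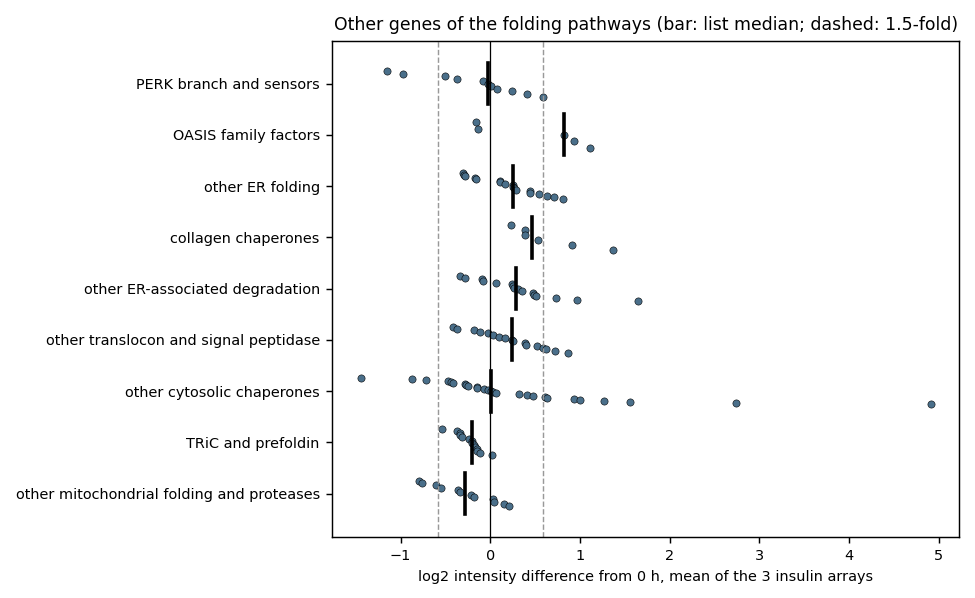
Log2 difference from 0 h, mean of the 3 insulin arrays (horizontal axis), for the 126 other folding genes by list; black bars are list medians and dashed lines mark 1.5-fold. The lists of ER folding, collagen chaperones, ERAD and the translocon have medians between 0.25 and 0.46. The median is 0.82 for the transcription factors related to ATF6 and -0.03 for the PERK branch and sensors. It is 0.01 for the other cytosolic chaperones, -0.20 for TRiC and prefoldin and -0.28 for mitochondrial folding.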

How the data were processed

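The authors deposited linear intensities, 1 per probe set on each array. RMA is named in the submitters' processing notes, with software and version not given in the sources used here. Values ran from 7.34 to 31292 with array medians of 65.0 to 65.8, and log2 was taken here. Gene names came from GEO's platform annotation, which can be old. The array has 45101 probe sets, 64 of them controls. A gene was kept if the mean log2 of its brightest probe set reached the median over non-control probe sets (66.2 as an intensity). Differences from 0 h were counted at 1.5-fold. The calling step was run on simulated arrays with planted changes well past 1.5-fold. The noise there was taken from the difference between the 24 h and 12 h insulin arrays. That run checks the counting only and says nothing of the error in differences from 0 h. Of 11661 kept genes 11646 had a chromosome in the RefSeq table.

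The genes and lists were chosen with earlier results of these data known. The rule for named genes allowed all 33 genes, plus Eif2ak3, Ern1, Atf4, Ddit3, Trib3, Creb3l1, P4hb, Serpinh1 and Hsph1. From each of 9 lists it also took up to 4 genes at least 1.5-fold from 0 h in 1 direction at all 3 times. These were the ones with the largest mean difference, so they are the extremes of their lists. Alternatives were other folds, filters, probe set rules, normalizations, chromosome medians removed, means for medians, and 1 mismatch in ERSE. The work used Python 3.11.15 with pandas 2.3.3, numpy 2.4.6, statsmodels 0.14.6, scipy 1.17.1 and, for plots, matplotlib 3.10.9.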

Additional observations from a re-analysis of the deposited data

How the results depend on the processing

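With 1 array per group, array error cannot be estimated and no array can be left out. No paired analysis was possible because the groups share 1 replicate number and no test was run. Probe sets limit the reading of single genes: of 23 genes with several probe sets above the filter, 13 had all of them on 1 side of 0 h and 10 did not, and the SD over probe sets had a median of 0.20 (log2). A median was taken as moved past 0.1 log2 and a count past 1.5 times. With the threshold at 25% above the lower value, members higher numbered 10, 10 and 10 at 6, 12 and 24 h and members lower 3 at 6 h; pathway genes higher numbered 38, 42 and 39 and lower 21, 22 and 27. At 2-fold, members higher were 2, 2 and 2 and lower 0, 0 and 0. Pathway genes higher were 7, 7 and 8 and lower 2, 2 and 3. The shares of all genes past 25% and past 2-fold from 0 h were not computed. These counts therefore have no background beside them and cannot be read as results about the members. The 6 h median of the cytosolic and mitochondrial genes changed sign with the mean of all probe sets (-0.074), suffixed probe sets left out (-0.064), quantile normalization (-0.040), a loess curve removed (-0.042), chromosome medians removed (-0.22) and means for medians (-0.10). With the mean of all probe sets, 2 members were lower at 6 h, 16 pathway genes were higher at 12 h, the ER median at 24 h was 0.10 and the ER gap at 12 and 24 h was 0.35 and 0.24. With suffixed probe sets left out, 29 members remained, 2 were lower at 6 h and the 6 h gap was 0.32. With chromosome medians removed, 0 members were lower at 6 h and 1 at 24 h, 6 pathway genes were lower at 24 h, the cytosolic and mitochondrial medians at 12 and 24 h were -0.43 and -0.34, and the gaps were 0.52, 0.66 and 0.58. With means the gaps at 6 and 24 h were 0.39 and 0.47. The median of the other cytosolic chaperones changed sign with no filter (-0.030), the stricter filter (-0.030), suffixed probe sets left out (-0.020), array medians centred (-0.0046), quantile normalization (-0.043) and loess (-0.024), and the PERK list with chromosome medians removed (0.013). The causes were not tested. With 1 mismatch allowed, 13 members held ERSE, against 1.5% of all windows. The ER gap was above 0 at all 3 times under every alternative run.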

Other observations

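The 17 ER chaperone, isomerase and ERAD genes with a promoter window were also set side by side by what the window holds. The 10 with ERSE or ERSE-II had a median difference from 0 h of 0.25 on the log2 scale (mean of the 3 insulin arrays), from -0.72 in Herpud1 to 1.46 in Dnajc3. The 7 without either element, namely Dnajb9, Sdf2l1, Pdia3, Pdia4, Edem1, Sel1l and Derl2, had a median of 0.25 as well, from 0.05 to 1.02. Genes with the element were thus found at both ends of the range.

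Among insulin arrays the collagen chaperones had the largest median step from 6 to 12 h of the 9 lists (0.16 on the log2 scale, 5 of 6 higher, against 57.1% of all genes), while 12 of 14 TRiC and prefoldin subunits were lower at 24 h than at 6 h, against 50.7% of all genes, with a median of -0.13. Of 12 mitochondrial folding genes and proteases 11 were lower at 24 h than at 12 h, against 58.4% of all genes, with a median of -0.10. For 12 h minus 6 h, 7 of these 12 were higher and 5 lower. The steps named here were singled out after the values of all 9 lists and all pairs were seen. The median of all genes was 0.03 for 12 h minus 6 h, -0.00226 for 24 h minus 6 h and -0.03 for 24 h minus 12 h.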
